A study of Rattus norvegicus with 15 samples.

Results

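Cxcl12 encodes a chemokine ligand and Cxcr4 its receptor. They are 2 of the 17055 genes named in the count tables of this series, and both were found by symbol. The pair was selected on its measured levels in these same libraries, with earlier results known. Its levels and fold changes are therefore a description, and no p-value is given for either gene.

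The cells were islet cells of 10-day-old Sprague-Dawley rats, dispersed and then transfected. The tested cells received a mimic of the microRNA miR-17-5p, which raises its amount in the cell, and the control cells received a control mimic. Poly(A) RNA gave mRNA libraries, 5 for miR-17-5p and 3 for control. RNA co-precipitated with Ago2 gave RISC libraries, 4 for miR-17-5p and 3 for control. Ago2 is the protein of the silencing complex, RISC, that holds a microRNA and its target. No genetic change was made, and the labels name no sorting of cell types, so a library holds RNA of every cell type in the dispersed preparation. Libraries are labelled biological replicates, although titles and descriptions number them differently. The p-values here therefore measure the spread between these libraries alone, and part of it may be technical. The mimic itself was not among the genes counted, so the counts hold no direct check of the transfection.

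CXCL12 is a secreted chemokine made by stromal cells of many tissues. It binds CXCR4, a receptor coupled to inhibitory G proteins on leukocytes, endothelial cells and progenitor cells, and guides their migration and survival. A second receptor, ACKR3, formerly CXCR7, takes up CXCL12 and lowers the amount outside cells. In the mouse, the pair is known from the developing pancreas, where it acts in the growth of blood vessels and of the epithelium that forms islets.

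The added microRNA pairs with its targets mainly through its seed, bases 2 to 8. It is shown with the other rat microRNAs of the same seed, because these share its seed matches. RefSeq (assembly GRCr8) listed 5 mature names with this seed in 6 entries, of 693 names. Letters are RNA, 5′ to 3′, and capitals mark the seed.
miR-17-5p: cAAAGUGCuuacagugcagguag
miR-20a-5p: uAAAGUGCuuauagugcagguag
miR-20b-5p: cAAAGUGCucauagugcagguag
miR-93-5p: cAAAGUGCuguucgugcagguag
miR-106b-5p: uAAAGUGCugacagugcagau
Counted from the 5′ end of miR-17-5p, miR-20a-5p differs by C1U and C12U, and miR-20b-5p by U10C and C12U. miR-93-5p differs by U10G, A11U, C12U and A13C, and miR-106b-5p, which is shorter, by C1U, U10G and G20A. The miR-17-5p sequence lies on chromosome 15 at chr15:98587861-98587883 (plus strand) and again on chromosome X at chrX:137343615-137343637 (minus strand). A 7-base match to the seed, GCACTTT on the transcript strand, was searched from 250 bases before to 50 bases after the RefSeq start of each gene. The match was present in Cxcl12, at bases 3 to 9 of the transcribed sequence, and the first 24 transcribed bases (GRCr8, chr4:152060781-152060804, plus strand) are shown with it in capitals.
Cxcl12 start: ccGCACTTTcactctccgtccacc
Of 33365 such windows 1.62% held the match, and 0.258% held it within the 50 transcribed bases. The Cxcr4 window did not hold these letters. The searched window covers only the start of each transcript, and the 3′ ends were not analysed here.

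The 2 genes differed in opposite directions in poly(A) RNA. Cxcl12 was higher with miR-17-5p, by 3.3-fold, and Cxcr4 was lower, by 2.48-fold. In Ago2-bound RNA, Cxcl12 was again higher with miR-17-5p, while Cxcr4 had counts in 3 of 4 miR-17-5p libraries and in none of the 3 control libraries. Values are CPM, counts scaled to a common library size with trimmed mean of M values (TMM) factors within each library type. They are not corrected for transcript length, so each gene is compared between libraries and not with the other gene.

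**Figure D1:**
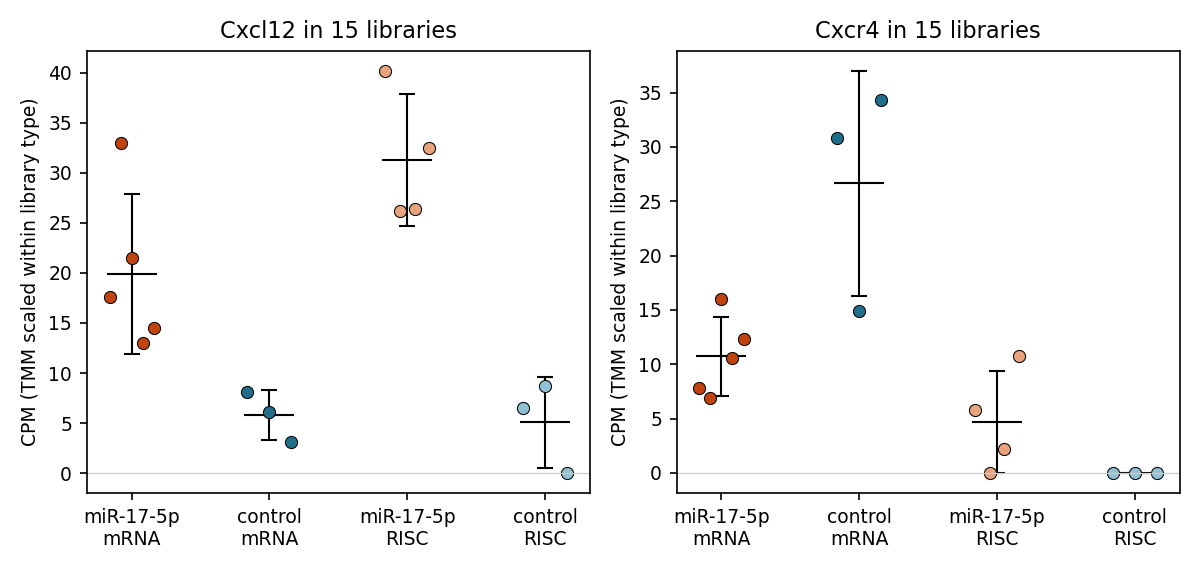
Levels of Cxcl12 (left) and Cxcr4 (right) in each of the 15 libraries, in CPM on a linear axis; points are libraries, horizontal marks are group means and bars are 1 SD. Cxcl12 lies between 13.0 and 33.0 CPM in the 5 miR-17-5p mRNA libraries, above the 3.12 to 8.08 CPM of the 3 control mRNA libraries, and Cxcr4 is at 0 in all 3 control RISC libraries.

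The ligand gene Cxcl12 lies on chromosome 4 (GRCr8, chr4:152060781-152073628, 3 RefSeq transcripts). In miR-17-5p mRNA libraries 1, 2, 4, 5 and 6, Cxcl12 had 327, 283, 144, 77 and 144 counts, against 86, 49 and 10 counts in control mRNA libraries 1, 2 and 3. On the CPM scale these were 17.6, 33.0, 21.5, 13.0 and 14.5 with miR-17-5p, against 8.08, 6.09 and 3.12 in control. Every miR-17-5p library lay above every control library. Cxcl12 was chosen with these values known, so this separation is a description. The share of all genes whose groups separate in this way is not given here. Cxcl12 averaged 19.9 ± 8.02 CPM with miR-17-5p (SD, n = 5) and 5.76 ± 2.49 CPM in control (SD, n = 3). The log2 fold change was 1.72 ± 0.37 (SE), and it stayed between 1.46 and 2.04 when each mRNA library was left out.

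The receptor gene Cxcr4 lies on chromosome 13 (chr13:42630383-42634288, 2 RefSeq transcripts). In miR-17-5p mRNA libraries 1, 2, 4, 5 and 6, Cxcr4 had 146, 59, 107, 63 and 122 counts, against 328, 120 and 110 counts in control mRNA libraries 1, 2 and 3. These were 7.86, 6.88, 16, 10.6 and 12.3 CPM with miR-17-5p, against 30.8, 14.9 and 34.3 CPM in control. The groups overlapped at 1 point: miR-17-5p library 4 lay above control library 2, and the other 4 miR-17-5p libraries lay below every control library. Cxcr4 averaged 10.7 ± 3.65 CPM with miR-17-5p (SD, n = 5) and 26.7 ± 10.3 CPM in control (SD, n = 3). The log2 fold change was -1.31 ± 0.32, between -1.61 and -1.10 with each mRNA library left out.

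The spread within a group was also unlike between the 2 genes. Within the miR-17-5p mRNA group, Cxcl12 was highest in library 2 and Cxcr4 was lowest there. Within the control mRNA group, Cxcl12 was lowest in library 3 and Cxcr4 was highest there. At the other extreme of each group the libraries were not the same: with miR-17-5p Cxcl12 was lowest in library 5 and Cxcr4 highest in library 4, and in control Cxcl12 was highest in library 1 and Cxcr4 lowest in library 2.

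The count ratio of Cxcl12 to Cxcr4 within a library does not depend on library size. It was 2.24, 4.80, 1.35, 1.22 and 1.18 in miR-17-5p mRNA libraries 1, 2, 4, 5 and 6, against 0.262, 0.408 and 0.0909 in control mRNA libraries 1, 2 and 3. All 5 miR-17-5p ratios lay above all 3 control ratios. The ratio restates levels that were known when the pair was chosen, so this separation is no further result. The mean log2 ratio was 0.88 ± 0.86 with miR-17-5p (SD, n = 5) and -2.23 ± 1.11 in control (SD, n = 3), a difference of 3.10. Without control library 3, which held 10 Cxcl12 counts, the difference was 2.49. Without any other single library it was between 2.76 and 3.57. In the 3 miR-17-5p RISC libraries with Cxcr4 counts, numbers 2, 5 and 6, the ratio was 6.97, 11.8 and 3.00, and no control RISC library gave a ratio.

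**Figure D2:**
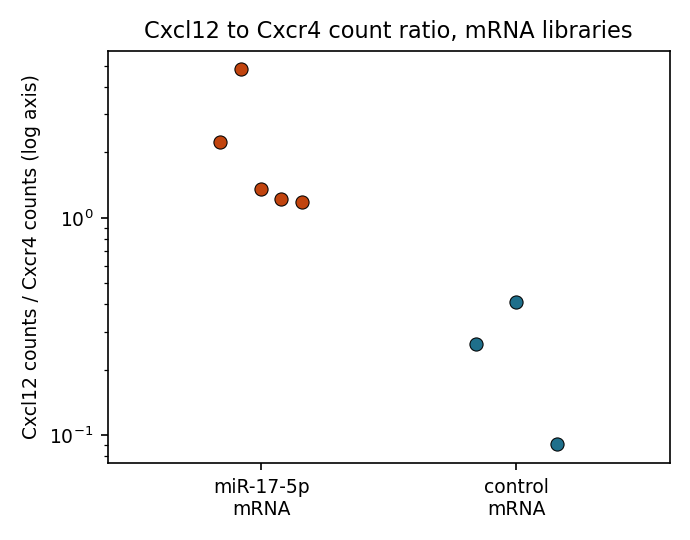
Count ratio of Cxcl12 to Cxcr4 in each mRNA library on a log axis, miR-17-5p on the left and control on the right; each point is 1 library. The 5 miR-17-5p libraries sit between 1.18 and 4.80 and the 3 control libraries between 0.0909 and 0.408.

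In RISC libraries, Cxcl12 was present in every miR-17-5p library. It had 516, 251, 235 and 195 counts in miR-17-5p RISC libraries 2, 4, 5 and 6, against 102, 68 and 0 counts in control RISC libraries 1, 2 and 3. These were 40.2, 26.2, 26.4 and 32.5 CPM with miR-17-5p, against 6.55, 8.72 and 0 CPM in control. The groups did not overlap, which is again a description of values known when Cxcl12 was chosen. Cxcl12 averaged 31.3 ± 6.61 CPM with miR-17-5p (SD, n = 4) and 5.09 ± 4.54 CPM in control (SD, n = 3). The log2 fold change was 2.62 with an SE of 1.69. It was 2.00 without control library 3, the library with 0 Cxcl12 counts, and 3.24 without control library 2. In control library 3, 3 counts correspond to 0.564 CPM, the limit that a count of 0 allows there.

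Cxcr4 had 74, 0, 20 and 65 counts in miR-17-5p RISC libraries 2, 4, 5 and 6, against 0 counts in each control RISC library. These were 5.77, 0, 2.24 and 10.8 CPM with miR-17-5p, and 3 counts correspond to 0.193, 0.385 and 0.564 CPM in control libraries 1, 2 and 3. The groups overlapped at 0, because miR-17-5p library 4 also held no Cxcr4 count. The miR-17-5p mean of 4.71 ± 4.72 CPM (SD, n = 4) was at least 12.4-fold higher than the mean control floor of 3 counts per library, 0.381 CPM. Without miR-17-5p library 6, the library with the highest level, the bound was 7.00-fold, and without any other single library it was between 9.52 and 16. Cxcr4 passed the filter on low counts in RISC only through the miR-17-5p libraries, so its passing there is no support for a difference. The mRNA and RISC comparisons use different control libraries of the same kind of cells, and their values stand side by side here without a test of likeness.

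Both comparisons of Cxcr4 in RISC stand on control libraries that held few genes. Control RISC libraries had counts for 5589 to 7424 genes, miR-17-5p RISC libraries for 9040 to 10753 and mRNA libraries for 11142 to 12997. Library totals ran over 7819020 to 12733872 counts for miR-17-5p RISC and 4185123 to 13420403 for control RISC, and over 5870265 to 21056240 for miR-17-5p mRNA and 3379456 to 10207925 for control mRNA. Of 10869 genes with a count in every control mRNA library, 3.41% were at 0 in all 4 miR-17-5p RISC libraries and 20.1% were at 0 in all 3 control RISC libraries. Cxcr4 is 1 of those 2180 genes at 0 in control RISC. The part of this loss of genes in the Cxcr4 values was not tested.

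Set against the poly(A) RNA of the same treatment, Cxcl12 and Cxcr4 again differed. For this, all 15 libraries were scaled together and fitted with 1 mean per group. Cxcl12 averaged 26.3 ± 5.58 CPM in miR-17-5p RISC (SD, n = 4) and 23.1 ± 9.35 CPM in miR-17-5p mRNA (SD, n = 5), a log2 fold change of 0.19 ± 0.84. Over all 11418 genes tested the median was -0.35. With DESeq2 size factors the Cxcl12 value turned to -0.14 and the median to -0.67, so Cxcl12 stayed above the median. In control cells Cxcl12 averaged 4.34 ± 3.85 CPM in RISC and 6.69 ± 2.95 CPM in mRNA (SD, n = 3 each), a log2 fold change of -0.63 ± 1.03, beside a median of -0.94. RISC and mRNA libraries overlapped for Cxcl12 under both treatments. The change of Cxcl12 with miR-17-5p in RISC minus that in mRNA was 0.82 ± 1.33, within its standard error, and the median over all genes was 0.40. Without the control libraries of number 2 the Cxcl12 difference was 1.52.

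Cxcr4 was lower in RISC than in mRNA. With miR-17-5p it averaged 3.96 ± 3.97 CPM in RISC (SD, n = 4) and 12.4 ± 4.16 CPM in mRNA (SD, n = 5), a log2 fold change of -1.65 ± 1.05. It was -1.05 without the miR-17-5p libraries of number 4 and -2.40 without those of number 6. In that treatment 3 of 4 RISC libraries lay below every mRNA library, and library 6, at 9.10 CPM, lay within the range of the mRNA libraries. In control cells all RISC libraries were at 0, against 30.8 ± 11.7 CPM in mRNA (SD, n = 3), so Cxcr4 was at least 95.4-fold lower in RISC, by the floor of 3 counts per library. No fitted difference between the RISC and the mRNA change is given for Cxcr4, because a group at 0 leaves its size to the prior count. RISC libraries of neither treatment were stated to be poly(A) selected, so library preparation and Ago2 binding cannot be told apart in these values.

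In order of level on the joint scale, Cxcl12 was highest in miR-17-5p RISC, followed by miR-17-5p mRNA, control mRNA and control RISC. The first pair in that order overlapped, the last pair overlapped, and a gap separated 14.8 CPM, the lowest miR-17-5p library, and 9.42 CPM, the highest control library. For Cxcr4 the order was control mRNA, miR-17-5p mRNA, miR-17-5p RISC and control RISC. Each neighbouring pair in the Cxcr4 order overlapped, at 18.4 and 17.4 CPM for the mRNA groups, at 9.10 and 7.99 CPM for the miR-17-5p groups and at 0 for the RISC groups.

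The genes with profiles most like each gene were found over the 8 mRNA libraries, among 9438 genes whose mean log2 CPM was 2 or more. Likeness was the root mean square difference between log2 CPM profiles after each gene's own mean was taken off, in log2 units, so 0 is identical. Closest to Cxcl12 was Tmed5, a trafficking protein of early secretory vesicles (0.229), which averaged 18.4 ± 7.56 CPM with miR-17-5p and 5.07 ± 1.07 CPM in control. Then came Ecm1, an extracellular matrix protein (0.243), Il1rl2, an interleukin 36 receptor (0.251), Fbln1, fibulin 1 of the matrix (0.257), and Pla2g4a, a cytosolic phospholipase (0.265). The median over all genes was 1.04. Cxcr4 stood at 1.68 from Cxcl12, at rank 9263 of the genes by likeness. This distance includes their opposite differences between treatments, known when the pair was chosen, and is no further result.

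Closest to Cxcr4 was Nkd2, an antagonist of Wnt signalling (0.335), which averaged 14.7 ± 7.90 CPM with miR-17-5p and 24.5 ± 10.7 CPM in control. Then came Sema7a, a semaphorin (0.345), Card10, a scaffold of the NF-kappaB pathway (0.363), Kdr, a receptor of vascular endothelial growth factor (0.370), and Ngfr, a neurotrophin receptor (0.401), beside a median of 0.833. Over the 7 RISC libraries, among 8606 genes, Cxcl12 was closest to Clip2 (0.137), Fam21c (0.30), Adamts2 (0.304), Fkbp10 (0.338) and Frem1 (0.352). Cxcr4 was closest there to Nip7, Hspb8, Plekha7, Tdrkh and Gper, of which 4 were also at 0 in all control RISC libraries and Tdrkh averaged 0.0214 CPM in them. Libraries of a group share a treatment, so genes that differ between treatments come out alike by this measure.

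**Figure D3:**
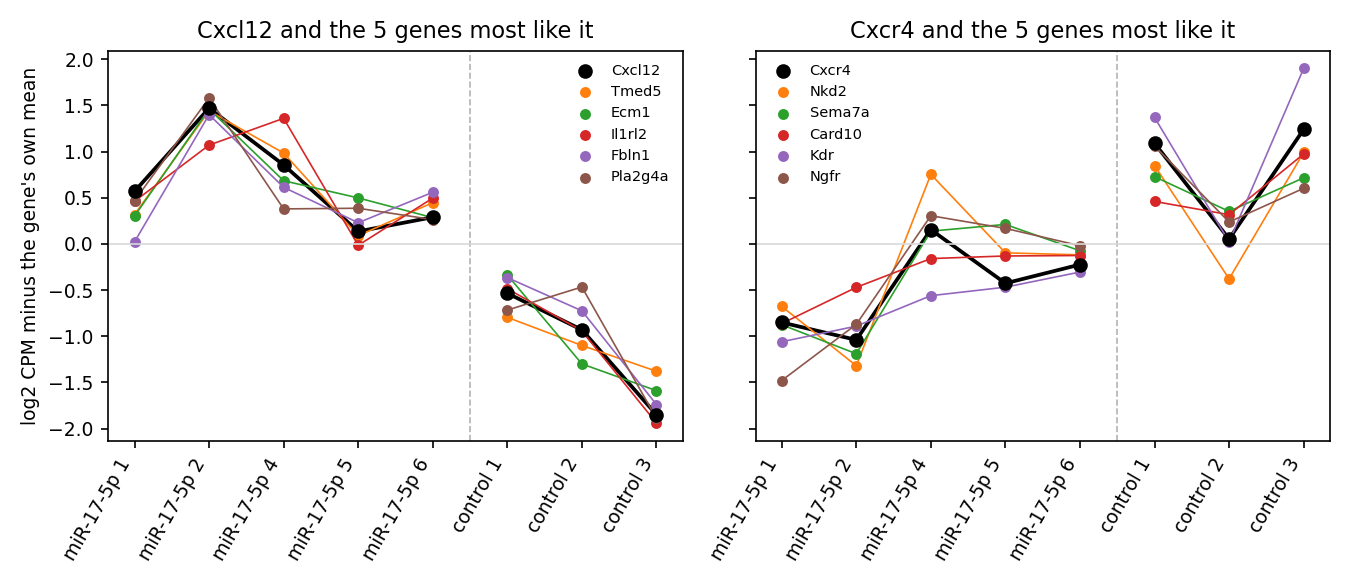
Log2 CPM minus the gene's own mean over the 8 mRNA libraries, for Cxcl12 (left panel, black) and Cxcr4 (right panel, black) with the 5 genes most like each in colour; miR-17-5p libraries are left of the dashed line and control libraries right of it, and lines only join the points of a gene. The Cxcl12 set is above its mean with miR-17-5p and below it in control except for 1 point of Il1rl2 near 0, while the Cxcr4 set is lowest in miR-17-5p libraries 1 and 2.

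Genes of the pathway around the pair came from 5 lists written from general knowledge, with earlier results of these data known. In mRNA, 5 of 102 tested pathway genes had an edgeR quasi-likelihood adjusted p under 0.05 (4.90%), 3 higher and 2 lower. Over all 11077 genes tested, 3.87% passed, 3.11% higher and 0.767% lower. The share of pathway genes was near that of all genes. The count was 1 without control library 2 or 3 or miR-17-5p library 4 or 5, 3 without miR-17-5p library 6, 9 without miR-17-5p library 1, and 4 without either of the other 2.

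Among partners of the pair, which bind, cut, clear or desensitise the ligand or its receptors, 1 of 23 rose and none fell. The 1 was Mmp2, a matrix metalloprotease that can cut CXCL12. It averaged 418 ± 137 CPM with miR-17-5p (SD, n = 5) and 191 ± 52.4 CPM in control (SD, n = 3), a log2 fold change of 1.12 ± 0.26 (edgeR adjusted p = 0.0353). The call was lost without control library 2 or 3 or miR-17-5p library 4 or 5, with edgeR adjusted p up to 0.170. Ackr3, the other CXCL12 receptor, named Cxcr7 in the tables, averaged 9.27 ± 2.80 CPM with miR-17-5p and 6.33 ± 4.12 CPM in control (log2 fold change 0.52 ± 0.42, edgeR adjusted p = 0.555). Mif, a cytokine that also binds CXCR4, averaged 330 ± 55.8 and 327 ± 55.3 CPM in miR-17-5p and control mRNA, and Sdc4, a heparan sulfate proteoglycan, 169 ± 31.5 and 160 ± 23.8 CPM. The median log2 fold change of the list was 0.01, as over all genes.

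Among signal transducers used by CXCR4, 1 of 39 rose and none fell. This was Lasp1, an actin-binding protein that associates with CXCR4 (249 ± 27.2 CPM with miR-17-5p and 165 ± 36.5 CPM in control, log2 fold change 0.59 ± 0.15, edgeR adjusted p = 0.0486). The call was lost in 6 of the 8 fits that leave out a library, all but those without control library 1 or miR-17-5p library 1, with edgeR adjusted p up to 0.214. Gnai2, an inhibitory G protein subunit that CXCR4 couples to, averaged 683 ± 61.4 CPM with miR-17-5p and 734 ± 62.5 CPM in control, and did not pass. Stat3, a transcription factor, averaged 298 ± 26.1 and 355 ± 18.7 CPM in miR-17-5p and control mRNA, and did not pass. The median of this list was 0.07.

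Few of the other chemokine genes were measured well enough to test. Of 33 other ligand genes with a row, only 16 had enough counts to be tested, and 1 fell while none rose. The 1 was Cxcl10, an interferon-induced ligand of CXCR3 (11.7 ± 3.4 CPM with miR-17-5p and 55.5 ± 27.1 CPM in control, log2 fold change -2.24 ± 0.33, edgeR adjusted p = 0.0035). It kept its call without each library in turn, with edgeR adjusted p between 0.00179 and 0.0344. Ccl2, a ligand for monocytes, averaged 42.6 ± 29.6 and 39.3 ± 24.1 CPM in miR-17-5p and control mRNA, and Cxcl16 20.4 ± 9.82 and 18.6 ± 4.12 CPM. Of 19 other receptor genes 6 were tested and none passed, and Cmklr1, the chemerin receptor, averaged 10.0 ± 5.90 CPM with miR-17-5p and 11.1 ± 1.34 CPM in control. An unadjusted p under 0.05 was reached by 3 of the other ligands and 0 of the other receptors in edgeR, beside 2100 of all 11077 genes. The median log2 fold changes were 0.40 for the ligands, of which 11 of 16 were above 0, and -0.12 for the receptors, beside 0.01 over all genes.

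Of 18 regulators known to act on Cxcl12 or Cxcr4 transcription, 1 rose and 1 fell. Tgfb1, a growth factor of the transforming growth factor beta family, averaged 72.9 ± 17.8 CPM with miR-17-5p and 36.8 ± 9.45 CPM in control (log2 fold change 0.97 ± 0.22, edgeR adjusted p = 0.0264). Its call was lost without control library 2 or 3 or miR-17-5p library 4 or 5, with edgeR adjusted p up to 0.144. Nfkbia, an inhibitor of NF-kappaB, averaged 35.3 ± 3.63 CPM with miR-17-5p and 55.0 ± 12.3 CPM in control (log2 fold change -0.65 ± 0.17, edgeR adjusted p = 0.0479). The Nfkbia call was lost in 7 of 8 fits that leave out a library, all but the one without miR-17-5p library 1, with edgeR adjusted p up to 0.218. Epas1, a hypoxia-inducible factor, averaged 45.3 ± 7.58 and 57.3 ± 8.88 CPM in miR-17-5p and control mRNA and did not pass. The median was 0.13.

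**Figure D4:**
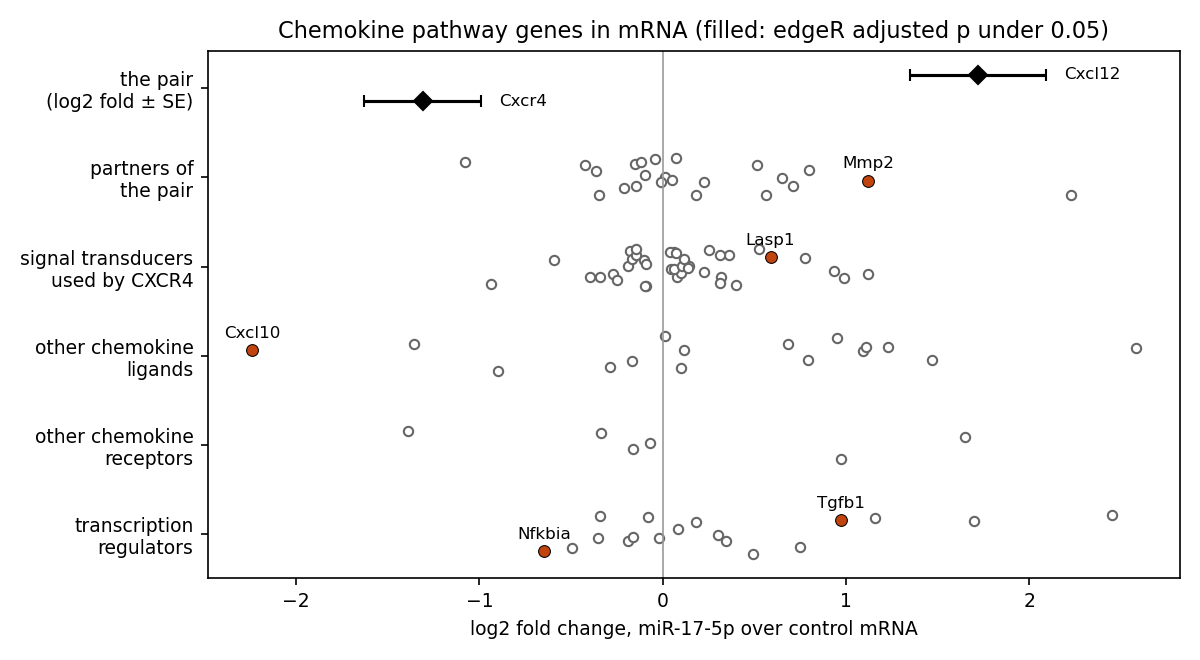
Log2 fold change of miR-17-5p over control in mRNA for the pair (diamonds, with 1 SE) and for the tested genes of the 5 pathway lists (circles, spread vertically only for legibility). Filled circles are the 5 genes with an edgeR adjusted p under 0.05, and Cxcl12 at 1.72 and Cxcr4 at -1.31 stand on opposite sides of 0.

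In RISC, 1 of 84 tested pathway genes passed (1.19%), beside 0.371% of all 9443 genes tested (0.339% higher and 0.0318% lower). This was Mmp2 again, at 328 ± 89.4 CPM with miR-17-5p (SD, n = 4) and 47.6 ± 24.3 CPM in control (SD, n = 3), a log2 fold change of 2.79 ± 0.44 (edgeR adjusted p = 0.0394). No other pathway gene passed, and 17 of the 84 had an unadjusted p under 0.05, beside 1899 of all 9443 genes, a similar share. The count was 14 without control library 2, 5 without miR-17-5p library 4, 2 without control library 3, and 0 without any of the other 4 libraries. In those 4 fits 13 to 20 had an unadjusted p under 0.05 in edgeR, beside 1139 to 2379 of all genes. The Mmp2 call was lost without control library 1 or 3 or miR-17-5p library 2, 5 or 6, with edgeR adjusted p up to 0.101. Mmp14, the membrane protease that activates MMP2, averaged 389 ± 28.3 CPM with miR-17-5p and 122 ± 55.5 CPM in control and did not pass (edgeR adjusted p = 0.0725). Cxcl10, at 44.0 ± 28.9 CPM with miR-17-5p and 71.4 ± 34.3 CPM in control, did not pass in RISC. The median log2 fold changes were 0.31 for the partners, 0.25 for the transducers, -0.71 for the 7 other ligands and -0.04 for the regulators, beside 0.27 over all genes. For the 4 other receptors the median was 8.41 as fitted and 4.84 with the 2 genes at 0 in control, Ccr7 and Cmklr1, set to their bound. Cx3cr1 was at 0 in 2 of 3 control RISC libraries and averaged 0.0214 CPM in them. Ccr7, Cmklr1 and Cx3cr1 passed the filter on low counts only through the miR-17-5p libraries, so this median is no support for a difference.

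Cxcr4 was not the only gene of its pathway at 0 in control RISC. Among genes with a count in every control mRNA library, 5 of 22 partners (22.7%), 3 of 38 transducers (7.89%), 7 of 14 other ligands (50%), 4 of 6 other receptors (66.7%) and 1 of 16 regulators (6.25%) were at 0 in all 3 control RISC libraries, beside 20.1% of all genes. Mif averaged 31.1 ± 12.5 CPM in miR-17-5p RISC (SD, n = 4), at least 81.7-fold higher than the control floor. Cd74, the receptor of MIF, was at least 48.7-fold higher, at 18.5 ± 7.41 CPM. Arrb2, a beta-arrestin that takes CXCR4 from the cell surface, was at least 26.5-fold higher, at 10.1 ± 6.07 CPM. None of these 3 passed the test in RISC (edgeR adjusted p = 0.0725 each), and each had a count in all 4 miR-17-5p RISC libraries, which Cxcr4 had not. In RISC, Mif, Cd74 and Arrb2 passed the filter on low counts only through the miR-17-5p libraries. Their bounds are therefore no support for a difference. Cd74 and Arrb2 were outside the rule for named genes and were chosen after their values were seen.

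Between library types, pathway genes passed about as often as all genes. RISC against mRNA was called for 26 of 104 in miR-17-5p cells (25.0%, beside 21.5% of all genes) and for 41 of 104 in control cells (39.4%, beside 41.6%), 9 higher and 32 lower, beside 10.0% higher and 31.6% lower over all genes. The first count split into 10 higher and 16 lower, beside 1084 higher (9.49%) and 1375 lower (12.0%) over all genes. With DESeq2 size factors it split into 3 higher and 20 lower, beside 746 higher and 1783 lower over all genes. With 1 library number left out the count in miR-17-5p cells was 11 to 38, lowest without miR-17-5p number 5 and highest without control number 3. The change with miR-17-5p differed between RISC and mRNA for 11 of 104 (10.6%, beside 13.4%), all 11 higher in RISC, beside 13.0% of all genes higher and 0.394% lower, and for 19 without control number 2.

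Lists of markers stand here for the cells that could hold these transcripts, and the share of members called differed from list to list. These are bulk libraries, in which fewer cells of a type and less RNA per cell cannot be told apart. Stromal markers, of cells that make CXCL12 in many tissues, summed to 15346 to 33887 CPM in miR-17-5p mRNA libraries and 8926 to 15348 CPM in control, and 7 of 13 tested rose while none fell, beside 3.11% of all genes higher and 0.767% lower. The sums rest largely on abundant members. Col1a1 averaged 14000 ± 3760 CPM with miR-17-5p and 5960 ± 1920 CPM in control, and Pdgfra 37.6 ± 20.5 and 23.2 ± 5.86 CPM. Pdgfrb, a defining receptor of pericytes and stellate cells, averaged 324 ± 45.6 CPM with miR-17-5p and 204 ± 51.9 CPM in control. It passed at an edgeR adjusted p of 0.0469. The stromal calls with each library left out are not given here. Of the 13 tested, 11 were above 0 in log2 fold change and 2 below, Rgs5 at -1.87 ± 1.07 and Postn at -0.50 ± 0.27, neither of which passed. Rgs5 was not tested in RISC, with 0 counts in miR-17-5p and 22 in control. In RISC, stromal markers summed to 18627 to 23276 CPM with miR-17-5p and 3877 to 8723 CPM in control, and 4 of 12 rose while none fell, beside 0.339% of all genes higher. Of the 14 stromal markers Col1a2 was at 0 in every library. The lowest miR-17-5p sum in mRNA, 15346 CPM, and the highest control sum, 15348 CPM, came from library 1 of each group, where Cxcl12 had 17.6 and 8.08 CPM. The list's part in the Cxcl12 values was not tested.

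Endothelial markers, of cells that carry CXCR4, summed to 33.0 to 91.5 CPM in miR-17-5p mRNA libraries and 94.5 to 133 CPM in control. Of 10 tested, 2 fell and none rose, beside 0.767% of all genes lower. They were Cdh5, the cadherin of endothelial junctions (5.64 ± 2.81 CPM with miR-17-5p and 20.7 ± 5.19 CPM in control, edgeR adjusted p = 0.0121), and Kdr (2.84 ± 0.64 and 11.4 ± 6.46 CPM, edgeR adjusted p = 0.0261). The median log2 fold change of the list was -0.69, with 7 of the 10 below 0 and 3 above. Those above were Tek (0.63 ± 1.18), Flt1 (0.24 ± 0.34) and Cldn5 (0.17 ± 1.17), none of which passed. Kdr was also among the 5 genes most like Cxcr4. In RISC the endothelial sum was 66.1 to 166 CPM with miR-17-5p and 103 to 278 CPM in control, where Cxcr4 was at 0. None of 8 tested passed there in edgeR, and 4 were above 0 in log2 fold change and 4 below. An unadjusted p under 0.05 was reached by 4 of the 8, beside 1899 of all 9443 genes. Of these, Tek, Esam and Plvap were higher with miR-17-5p and Cdh5 was lower. Tek, Esam and Plvap passed the filter on low counts only through the miR-17-5p libraries. Their values are therefore no support for a difference. Robo4 was at 0 in every library, and Vwf, Emcn, Esam and Cldn5 were also at 0 in control RISC, 5 of the 12 listed in all. Beside this, 20.1% of genes with a count in every control mRNA library were at 0 there. The endothelial list was not limited to such genes. The part of endothelial cells in the Cxcr4 values was not tested.

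Leukocyte markers, of other cells that carry CXCR4, summed to 199 to 472 CPM in miR-17-5p mRNA libraries and 86.1 to 343 CPM in control. All 15 tested were above 0 in log2 fold change, and 1, the macrophage receptor Cd163, rose, beside 3.11% of all genes higher. Cd163 averaged 6.78 ± 9.20 CPM with miR-17-5p, from 1.35 to 23.1 CPM. In control mRNA it averaged 0.0313 ± 0.0542 CPM and was at 0 in 2 of 3 libraries (edgeR adjusted p = 0.0241). Cd163 passed the filter on low counts only through the miR-17-5p libraries, so its passing is no support for a difference. In RISC their sum was 375 to 540 CPM with miR-17-5p and 0.188 to 238 CPM in control. Cd14, Lyz2, Tyrobp, Cd53, Cd3e and Cd79b, 6 of the 17 listed, were at 0 in all control RISC libraries. Beside this, 20.1% of genes with a count in every control mRNA library were at 0 there, as Cxcr4 was. The leukocyte list was not limited to such genes. Of 12 tested in RISC 1 rose and none fell, beside 0.339% of all genes higher. The 1 was Lcp1, an actin-bundling protein of leukocytes (58.5 ± 23.0 CPM with miR-17-5p and 0.0214 ± 0.0371 CPM in control, edgeR adjusted p = 0.0257). Lcp1 was at 0 in 2 of 3 control RISC libraries. It passed the filter on low counts only through the miR-17-5p libraries, so its passing there is no support for a difference. Aif1, a macrophage marker that was not tested in RISC, had 0 counts in all miR-17-5p RISC libraries and 115 counts in control RISC libraries. Ptprc, the pan-leukocyte marker, averaged 32.1 ± 12.3 CPM in miR-17-5p RISC and 6.67 ± 7.25 CPM in control RISC. The sums of the 2 treatments overlapped in mRNA and did not overlap in RISC. The part of leukocytes was not tested.

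Endocrine markers, which define the islet, were present in every group and summed to 269594 to 490443 CPM in miR-17-5p mRNA and 382146 to 453101 CPM in control mRNA. None of the 11 tested passed in edgeR, although all 11 were below 0 and 6 had an unadjusted p under 0.05, beside 2100 of all 11077 genes. In RISC none of the 11 passed either, at 15745 to 22349 CPM with miR-17-5p and 21508 to 33037 CPM in control. There 5 of the 11 had an unadjusted p under 0.05, beside 1899 of all 9443 genes. Of acinar and duct markers 1 of 6 tested fell in mRNA, the epithelial adhesion gene Epcam, beside 0.767% of all genes lower. In RISC 0 of 3 passed, with 1 at an unadjusted p under 0.05.

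**Figure D5:**
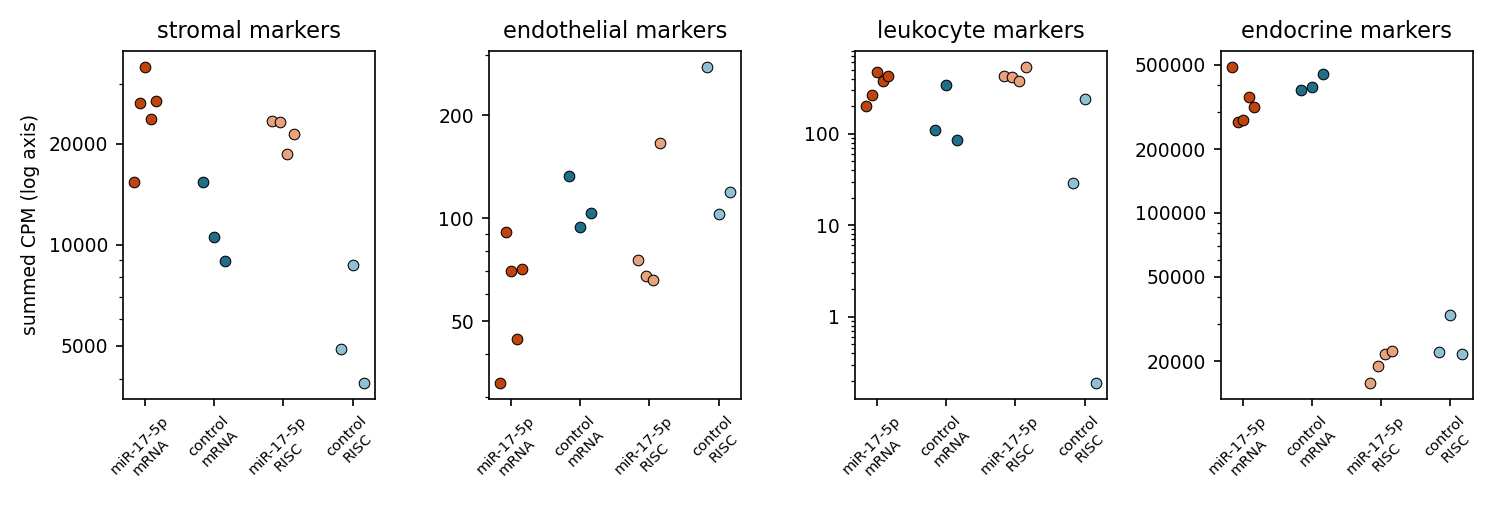
Summed CPM of stromal, endothelial, leukocyte and endocrine markers in each library, on log axes, with miR-17-5p left of control for mRNA and then for RISC; each point is 1 library. Stromal sums are higher with miR-17-5p in RISC (18627 to 23276 CPM, against 3877 to 8723 CPM in control), and endothelial sums are lower with miR-17-5p in mRNA (33.0 to 91.5 CPM, against 94.5 to 133 CPM in control).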

How the data were processed

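The deposited counts are whole reads per gene, 1 table per library. The submitters' processing notes name the build rn5, TopHat2 2.0.10, Bowtie2, HTSeq, DESeq and edgeR, and for most of them a version is not given in the sources used here. Per the labels' protocols, RNA was extracted with Trizol, and single-end libraries carried no strand. Oligo(dT) selection was used for mRNA and Ago2 immunoprecipitation for RISC. Without strand, reads of an overlapping or antisense gene cannot be told apart from those of Cxcl12 or Cxcr4. The counter's summary lines were left out: 15.0% to 31.2% of a library were alignments that were not unique, and 0.151% to 0.454% were ambiguous.

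Groups came from sample titles. Counts were fitted in R 4.3.3 with edgeR 4.0.16 (TMM factors, filterByExpr, robust quasi-likelihood, two-sided F-tests, Benjamini-Hochberg over all genes tested, called at an adjusted p under 0.05). The mRNA and RISC comparisons were fitted separately, and comparisons across library types in a fit of all 15 libraries. The biological coefficient of variation common to all genes came to 0.305 (mRNA), 1.23 (RISC) and 0.871 (the joint fit of all 15 libraries). Profiles used log2 CPM with a prior count of 2. The script was tested on simulated data. No 2 libraries of a group agreed within sampling noise (chi-square per degree of freedom 6.08 to 296 in 22 pairs). Floors of 3 counts cover counting error only.

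The members, the lists and the comparisons were chosen with earlier results of these data known. Named genes were the pair, every called member of each list and the 3 members with the highest level, and the 5 genes most like each of the pair. Not every such gene is described. Positions, names and sequences are from RefSeq (assembly GRCr8), where 14175 of the 17055 symbols were found, while the counts rest on rn5. Alternatives were DESeq2 1.42.0 size factors and Wald test, upper quartile factors, no filter, limma-voom 3.58.1 with quality weights, leaving out Ins1, Ins2 and Rn45s, a replicate block and each replicate left out.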

Additional observations from a re-analysis of the deposited data

Results flagged for a closer look

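The change with miR-17-5p differed between RISC and mRNA, by an interaction term in the fit of all 15 libraries (edgeR), for 5 of the pathway genes named by the rule. Mmp2 was higher with miR-17-5p by 1.65 ± 0.50 more on the log2 scale in RISC than in mRNA (adjusted p = 0.0424). Stat3, the transcription factor downstream of CXCR4, differed by 0.82 ± 0.21 (adjusted p = 0.0184), at 499 ± 28.1 CPM in miR-17-5p RISC and 333 ± 82.6 CPM in control RISC, while it was 298 ± 26.1 CPM in miR-17-5p mRNA and 355 ± 18.7 CPM in control mRNA. For Mif (adjusted p = 2.99e-06), Cxcl11, another CXCR3 ligand (adjusted p = 0.000449), and Cmklr1 (adjusted p = 0.000578) all 3 control RISC libraries were at 0, so no fitted size is given. Against the floor of 3 counts per library, Cxcl11 was at least 16.3-fold and Cmklr1 at least 29.3-fold higher in miR-17-5p RISC than in control RISC. Among RISC libraries both genes passed the filter on low counts only through those of miR-17-5p, so these bounds are no support for a difference. Of all genes, 13.4% were called by this term, and genes missing from control RISC were common among them on the lists. The joint fit used 1 estimate of spread per gene for both library types, whose spread differed. It may therefore understate the spread between RISC libraries. Over all genes, the same term gave 0 calls by limma-voom and 30 with a replicate block. No library of Cxcl12 or Cxcr4 stood apart from its group in the groups of 4 or 5.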

How the results depend on the processing

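In mRNA, Cxcl12 kept its direction in all 15 alternatives (log2 fold change 1.25 to 2.04) and Cxcr4 in all 15 (-1.61 to -0.94), with 1.46 to 2.04 and -1.61 to -1.10 when each replicate was left out. In RISC, Cxcl12 was 2.00 to 3.78 in 13 alternatives, lowest without control replicate 3 and highest by limma-voom, and 2.00 to 3.24 with each replicate left out. The lower bound for Cxcr4 was 7.00 to 16 in RISC over control with each replicate left out, and 75.2 to 124.5 in control RISC under control mRNA. RISC against mRNA with each replicate left out gave Cxcl12 0.08 to 0.35 in miR-17-5p and -1.17 to -0.36 in control, Cxcr4 -2.40 to -1.05 in miR-17-5p, and the Cxcl12 difference 0.70 to 1.52. By limma-voom that difference was 2.05.

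Counts of called genes moved more. In mRNA they were 887 by DESeq2, 1001 by limma-voom and 85 to 816 with each replicate left out, and for the pathway 8, 9 and 1 to 9. In RISC they were 1305, 20 and 0 to 1225, and for the pathway 13, 0 and 0 to 14, with 0 by DESeq2 size factors and 2 without a filter. RISC against mRNA in miR-17-5p gave 5971 by limma-voom and 1650 to 3572 with each replicate left out (pathway 47, and 11 to 38). In control it gave 1273 and 4318 to 5132 (pathway 11, and 35 to 44). The difference gave 0 by limma-voom, with 1334 genes at an unadjusted p under 0.05, and 1155 to 2452 (pathway 0, with 12 unadjusted, and 8 to 19). The cause was not tested.

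Same-numbered libraries did not deviate together (correlations -0.305 to 0.057 in 10 pairs), so numbers were not taken as pairs. With a replicate block, edgeR called 0 genes in mRNA (512 at an unadjusted p under 0.05), 988 in RISC against mRNA in miR-17-5p, 2716 in control and 30 for the difference (pathway 0, with 3 unadjusted, then 7, 20 and 1). Under the block Cxcl12 in control RISC against mRNA was -1.60. No block was fitted for miR-17-5p against control in RISC, whose groups share only number 2.

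In RISC, Cxcr4 rests on 159 counts in all, and replicates spread widely.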
